A study of Mus musculus with 6 samples.

Results

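The mitochondrial ribosomal proteins were taken as the protein-coding rows of the deposited expression table whose gene name is Mrpl or Mrps followed by digits. This gave 78 genes of 54532 in the table, 49 named for the large subunit (Mrpl) and 29 for the small subunit (Mrps), and 5 pseudogene rows with such names were left out. The data are bulk RNA-seq libraries, 6 in all, of cultured granulosa cells from mouse ovary, the cells that surround and feed the oocyte. The CTX group holds 3 libraries of cells given cyclophosphamide, an alkylating chemotherapy drug, and harvested after 24 h, and the Normal group holds 3 libraries of cells given no drug. Both groups carry the genotype label WT and were grown as adherent cultures in DMEM/F12 with serum and antibiotics. The treatment label of the CTX samples names intraperitoneal injection, whereas the other descriptions speak of drug given in culture, and these are followed here. The labels give no dose, no age and no mouse strain, and list the cells both as a cell type and as a cell line. Whether replicates were separate cultures or animals is not stated, so the spread behind the p-values may be technical.

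Mitochondria make a small set of respiratory chain proteins on ribosomes of their own. The rRNA of these mitoribosomes is transcribed inside the organelle, whereas every mitoribosomal protein is encoded in the nucleus, translated in the cytosol and imported, so assembly needs both genomes. Many mitoribosomal proteins descend from bacterial ribosomal proteins, and others were added in the mitochondrial lineage and sit mostly on the outer face of the particle. Several factors are known to bind promoters of nuclear genes for mitochondrial proteins, among them nuclear respiratory factor 1, the ETS factor GABP and YY1.

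The promoters of 6 members, chosen after their values were seen, are shown because each holds the core of the nuclear respiratory factor 1 motif and the genes did not all move in the same direction. Mrpl32, Mrpl9, Mrps18b and Mrpl22 rose in CTX libraries, whereas Mrpl17 and Mrpl33 fell. Each sequence is the 250 bases before the gene's start in RefSeq, build GRCm38.p6, printed 5′ to 3′ on the gene's own strand. Capitals mark matches, on either strand, to GCGCATGC, the nuclear respiratory factor 1 core, and in Mrpl32 also the reverse complement of AAGATGGC, a YY1 core.
Mrpl32, chr13:14613038-14613287, minus strand: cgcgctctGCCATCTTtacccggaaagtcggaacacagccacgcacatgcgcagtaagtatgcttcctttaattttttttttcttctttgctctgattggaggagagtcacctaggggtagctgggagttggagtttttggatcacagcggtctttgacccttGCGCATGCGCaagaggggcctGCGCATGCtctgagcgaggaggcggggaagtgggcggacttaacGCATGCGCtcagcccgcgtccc
Mrpl9, chr3:94443086-94443335, plus strand: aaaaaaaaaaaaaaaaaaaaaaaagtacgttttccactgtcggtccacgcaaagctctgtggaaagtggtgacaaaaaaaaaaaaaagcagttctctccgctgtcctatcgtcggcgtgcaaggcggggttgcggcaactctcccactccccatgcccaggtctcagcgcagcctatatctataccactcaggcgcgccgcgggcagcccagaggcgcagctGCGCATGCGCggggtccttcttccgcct
Mrps18b, chr17:35916441-35916690, minus strand: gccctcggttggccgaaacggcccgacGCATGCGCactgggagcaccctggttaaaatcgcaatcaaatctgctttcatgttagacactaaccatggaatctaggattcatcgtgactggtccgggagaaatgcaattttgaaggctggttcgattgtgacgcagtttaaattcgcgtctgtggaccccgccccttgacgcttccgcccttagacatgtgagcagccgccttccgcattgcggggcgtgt
Mrpl22, chr11:58171414-58171663, plus strand: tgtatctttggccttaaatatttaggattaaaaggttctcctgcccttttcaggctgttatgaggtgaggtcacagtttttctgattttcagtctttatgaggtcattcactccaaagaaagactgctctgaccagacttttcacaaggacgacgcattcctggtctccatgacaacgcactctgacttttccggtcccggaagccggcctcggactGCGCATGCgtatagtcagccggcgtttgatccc
Mrpl17, chr7:105811088-105811337, minus strand: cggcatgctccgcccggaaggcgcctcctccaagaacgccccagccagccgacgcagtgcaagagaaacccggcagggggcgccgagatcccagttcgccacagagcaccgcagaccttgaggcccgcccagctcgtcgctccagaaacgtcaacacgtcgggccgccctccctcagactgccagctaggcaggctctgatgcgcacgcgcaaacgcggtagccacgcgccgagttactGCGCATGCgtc
Mrpl33, chr5:31613701-31613950, plus strand: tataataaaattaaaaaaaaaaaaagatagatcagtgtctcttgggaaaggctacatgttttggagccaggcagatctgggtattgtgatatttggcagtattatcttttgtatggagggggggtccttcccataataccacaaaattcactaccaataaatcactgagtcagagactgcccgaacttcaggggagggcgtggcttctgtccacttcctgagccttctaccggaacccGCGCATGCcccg
Mrpl32 held 4 matches to the nuclear respiratory factor 1 core, of which 2 overlap within 1 palindromic run, and Mrpl9 held 2 that overlap in the same way. The other 4 promoters shown held 1 match each.

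These letters were not shared by most members. RefSeq promoters were found for 69 of the 78 members, 75 promoters in all because some genes have more than 1 start. The core GCGCATGC was present in 8 member promoters (10.7%), against 4.3% of 12881 promoters of tested protein-coding genes and 2.3% of all 32851 promoters of the same length. The ETS core CCGGAAGT was present in 10 (13.3%), against 5.7% of promoters of tested protein-coding genes and 2.9% of all promoters. The YY1 core AAGATGGC was present in 4 (5.3%), against 1.9% of promoters of tested protein-coding genes and 1.6% of all promoters. The E-box CACGTG was present in 7 (9.3%), against 8.2% of promoters of tested protein-coding genes and 6.0% of all promoters. An ATF4 core, TGATGNAA, was present in 0, against 2.0% of promoters of tested protein-coding genes and 3.5% of all promoters. All 5 motifs were searched on both strands, and a match is a description of the letters, not a binding site.

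Holders of a motif changed in both directions. Of the 8 members with the nuclear respiratory factor 1 core, 5 rose (Mrpl9, Mrpl22, Mrpl32, Mrpl39 and Mrps18b), 2 fell (Mrpl17 and Mrpl33) and Mrpl10 was not called. Mrpl32, the member with the most matches, had 7.29, 6.64 and 6.60 FPKM in CTX libraries, against 4.29, 4.47 and 4.41 FPKM in Normal libraries. Mrpl22, whose bacterial counterpart lines the exit tunnel for the new protein, had 38.7, 34.4 and 28.03 FPKM in CTX libraries, against 18.6, 24.4 and 24.002 FPKM in Normal libraries. In both genes all CTX values lay above all Normal values, and the log2 fold changes were 0.63 ± 0.08 for Mrpl32 (limma, adjusted p = 0.00028) and 0.59 ± 0.14 for Mrpl22 (limma, adjusted p = 0.0064). Mrpl17, a protein of the large subunit body, had 5.89, 5.76 and 4.65 FPKM in CTX libraries, against 6.85, 7.38 and 7.55 FPKM in Normal libraries. Mrpl33, a small protein of the large subunit, had 4.75, 4.49 and 4.29 FPKM in CTX libraries, against 6.79, 6.01 and 6.06 FPKM in Normal libraries. In these genes all CTX values lay below all Normal values, with log2 fold changes of -0.42 ± 0.11 for Mrpl17 (limma, adjusted p = 0.0092) and -0.47 ± 0.09 for Mrpl33 (limma, adjusted p = 0.0022). Of the 10 members with the ETS core 1 rose, 5 fell and 4 were not called. Of the 4 with the YY1 core 1 rose and 2 fell, and of the 5 with the E-box 1 rose and 3 fell. Of all tested members 39.0% were called higher and 24.7% lower, and of all tested genes 33.1% and 35.8%, so counts among so few genes are given as a description.

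The libraries were of similar depth. The reads behind the deposited values summed to 16689902, 17275338 and 16715499 in CTX libraries and to 16458385, 17607586 and 17334754 in Normal libraries. The first principal component over all tested genes separated the groups and held 86.8% of the variance, and the second, with 4.7%, set CTX 1 (27.98) apart from CTX 2 (-20.26) and CTX 3 (-6.72). Of 14 granulosa markers 12 could be tested, and 10 were called lower and 2, Kitl (0.96) and Nr5a1 (0.33), higher. Inha, a subunit of the hormone inhibin, was at 1087, 805 and 823 FPKM in CTX libraries, against 1875, 2057 and 2019 FPKM in Normal libraries. Amh and Cyp19a1, which also define granulosa cells, were near 0 in both groups, at no more than 0.4 FPKM in any library. The summed level of the granulosa markers was 1185 to 1505 FPKM in CTX libraries and 2971 to 3162 FPKM in Normal libraries, and without Inha 379 to 419 FPKM in CTX libraries and 1068 to 1143 FPKM in Normal libraries. The summed level of 10 blood cell markers was 11.6 to 15.5 FPKM in CTX libraries and 7.60 to 8.55 FPKM in Normal libraries, and that of 9 smooth muscle and pericyte markers was 14.4 to 25.2 FPKM in CTX libraries and 89.3 to 100.4 FPKM in Normal libraries. Theca and stroma markers summed to 7.87 to 9.38 FPKM in CTX libraries and 25.1 to 31.1 FPKM in Normal libraries, surface epithelium markers to 50.2 to 73.3 FPKM in CTX libraries and 106.5 to 120.2 FPKM in Normal libraries, endothelial markers to 2.09 to 2.68 FPKM in CTX libraries and 0.744 to 1.01 FPKM in Normal libraries, and oocyte markers to 3.201 to 4.71 FPKM in CTX libraries and 0.936 to 1.37 FPKM in Normal libraries. Of 4 tested blood cell markers 3 were called higher and 1 lower. Of 8 tested smooth muscle and pericyte markers 1 was called higher and 5 lower. For theca and stroma 0 of 4 tested were called higher and 2 lower, and for surface epithelium 0 of 5 and 4. Among 3 tested endothelial markers 1 was called higher and 0 lower, with a median log2 fold change of -0.32, unlike their sum. Among 3 tested oocyte markers 2 were called higher and 0 lower. Over all tested genes the shares were 33.1% higher and 35.8% lower. In bulk samples, fewer cells of a type and less RNA per cell cannot be told apart, and the part of these marker shifts in the members' values was not tested.

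The mitoribosomal protein genes moved in both directions and by small amounts. A gene was called where the difference between groups had an adjusted p under 0.05 (limma on log2(FPKM + 0.1), Benjamini-Hochberg over 14885 tested genes), with FPKM the read count adjusted for length and depth. Of 77 tested members 30 were called higher in CTX libraries (39.0%), 19 lower (24.7%) and 28 were not called, against 33.1% of all tested genes called higher and 35.8% called lower. Members were called in either direction in 63.6% of cases, against 68.9% of all tested genes and 71.7% of tested protein-coding genes, so the share of members that moved was near the background. The median log2 fold change of the members was 0.10, against -0.02 over all tested genes. Upper-quartile scaling moved the median of all genes to -0.13 and turned the sign of the members' median, to -0.01, and the calls became 24 higher and 27 lower. Relative to the median of all tested genes, the members' median was 0.13 as deposited and 0.12 under upper-quartile scaling.

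The spread among members was narrower than among genes at large. The log2 fold changes of members ran from -1.34 to 1.02 with an SD of 0.46, against an SD of 1.02 over all tested genes. A called change of at least 1.5-fold was found in 16 members, or 20.8%, against 47.1% of all tested genes. A called change of at least 2-fold was found in 2 members, Mrps30, which rose, and Mrpl54, which fell, against 26.6% of all tested genes. All 3 CTX values lay above all 3 Normal values in 30 members and below them in 20, against 35.3% and 37.8% of all tested genes. The mean level of a tested member ran from 1.75 to 78.9 FPKM in CTX libraries, with a median of 13.7, and from 2.56 to 77.8 FPKM in Normal libraries, with a median of 13.1. Every tested member had at least 1114 reads over the 6 libraries. The gene length behind the FPKM equals the union of all annotated exons in 73 of the 78 members, so a long alternative exon lowers the level given for its gene.

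**Figure D1:**
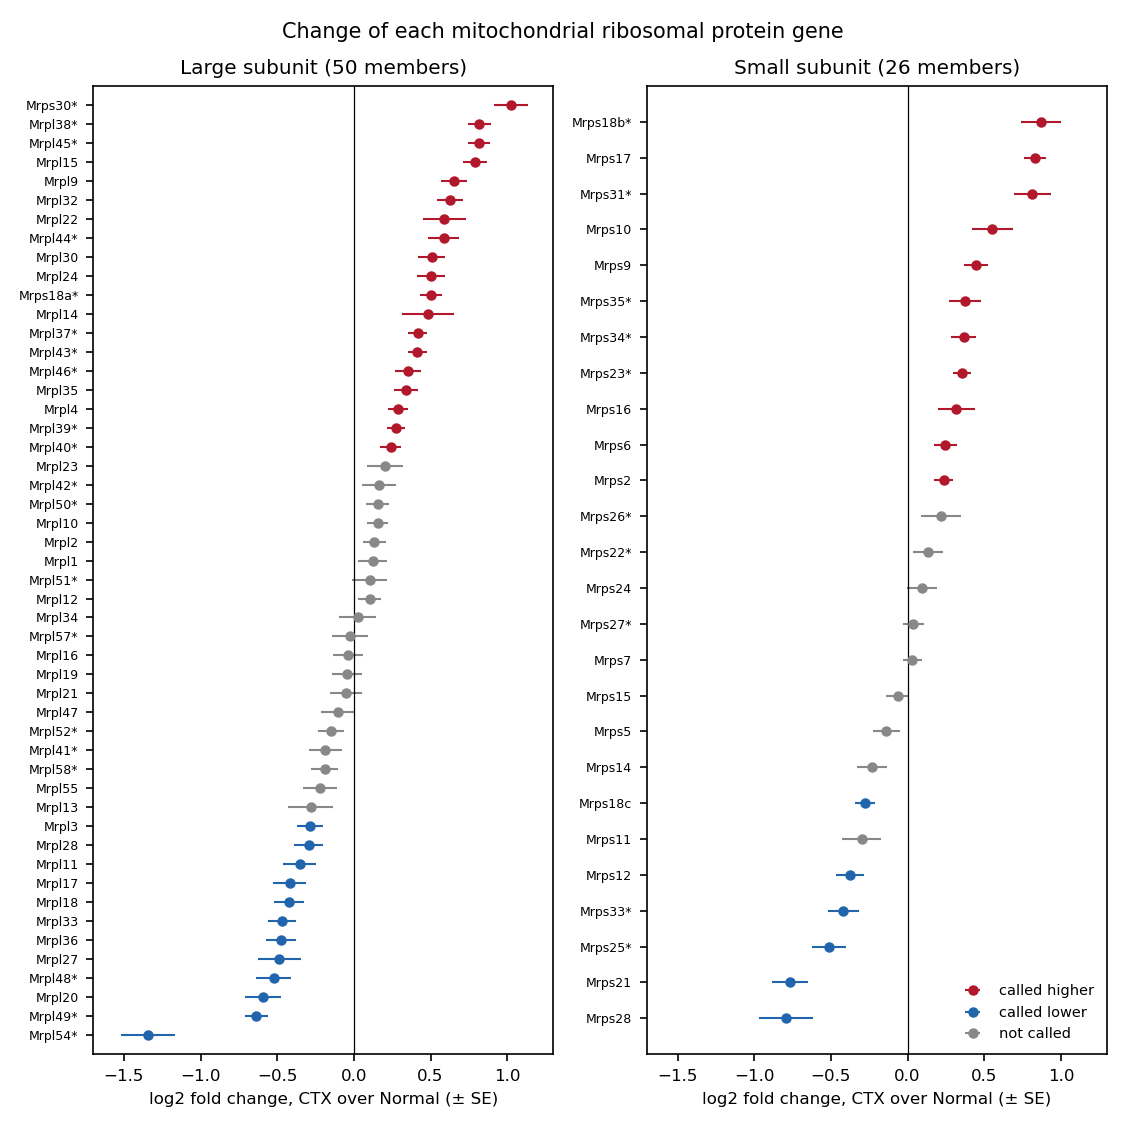
Log2 fold change of each tested member, CTX over Normal, with its SE, for the 50 members of the large subunit (left) and 26 of the small subunit (right) as structures place them; an asterisk marks a protein named as mitochondria-specific. Called members lie on both sides of 0 in each subunit, from -1.34 (Mrpl54) to 1.02 (Mrps30), and under upper-quartile scaling the median of all members is -0.01 instead of 0.10.

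The counts and medians of the large and the small subunit lay close together. By gene name, 17 of 48 tested large subunit members were called higher and 12 lower, with a median of 0.10, and 13 of 29 small subunit members were called higher and 7 lower, with a median of 0.13. The large minus small difference in median was -0.03, and it was -0.07 without CTX 1, -0.07 without Normal 2 and -0.08 without Normal 3. Structures of the mammalian mitoribosome place Mrps18a and Mrps30 in the large subunit, and Mrps36 is known as a component of the 2-oxoglutarate dehydrogenase complex. With these moved, 19 of 50 large subunit members were called higher and 12 lower, and 11 of 26 small subunit members were called higher and 6 lower, with a median of 0.11 in both. Under upper-quartile scaling those counts were 17 and 17 in the large subunit and 7 and 9 in the small subunit, with a median of 0.00 in both.

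The summed levels of each subunit overlapped between the groups. The large subunit members, by name, summed to 929, 893 and 839 FPKM in CTX libraries, against 791, 891 and 848 FPKM in Normal libraries. The small subunit members summed to 406, 379 and 371 FPKM in CTX libraries, against 368, 404 and 375 FPKM in Normal libraries. At least 1 CTX sum lay below a Normal sum in each subunit. The ratio of the large to the small sum was 2.29, 2.36 and 2.26 in CTX libraries and 2.15, 2.20 and 2.26 in Normal libraries, and with the members placed by structure it was 2.57, 2.61 and 2.52 in CTX libraries and 2.37, 2.42 and 2.50 in Normal libraries. By name the ratios overlapped between the groups, and by structure every CTX ratio lay above every Normal ratio. As a share of all reads, the members held 0.283%, 0.286% and 0.274% in CTX libraries and 0.237%, 0.254% and 0.243% in Normal libraries, with every CTX share above every Normal share. As a share of summed FPKM, in which long genes do not weigh more, they held 0.444%, 0.454% and 0.437% in CTX libraries and 0.421%, 0.463% and 0.437% in Normal libraries, and the groups overlapped.

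Within each subunit, the median change was higher for proteins specific to mitochondria than for those of bacterial type. This grouping, from the unified ribosomal protein names, was chosen after the values were seen and is given without a test. Those names count Mrps18a and Mrps18b, relatives of bacterial S18, as mitochondria-specific, since Mrps18c takes the place of S18. Of 30 tested mitochondria-specific members 15 were called higher and 5 lower, with a median of 0.23. Of 46 bacterial-type members 15 were called higher (32.6%) and 13 lower (28.3%), with a median of -0.01. Over all tested genes the shares were 33.1% higher and 35.8% lower. The medians in the large subunit were 0.20 over 20 mitochondria-specific and -0.01 over 30 bacterial-type members, and in the small subunit 0.29 over 10 and -0.02 over 16. The difference between the medians of the 2 kinds was 0.24, and it ran from 0.20 to 0.29 when 1 library was left out. The other scalings and filters shift both kinds nearly alike and so could hardly move this difference. With Mrps18a and Mrps18b counted as bacterial type, the medians were 0.19 over 28 mitochondria-specific and 0.03 over 48 bacterial-type members, a difference of 0.16, with 13 higher and 5 lower among the mitochondria-specific and 17 higher and 13 lower among the bacterial-type members. Under upper-quartile scaling the calls were 13 higher and 8 lower among mitochondria-specific members (median 0.12) and 11 higher and 18 lower among bacterial-type members (median -0.12).

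**Figure D2:**
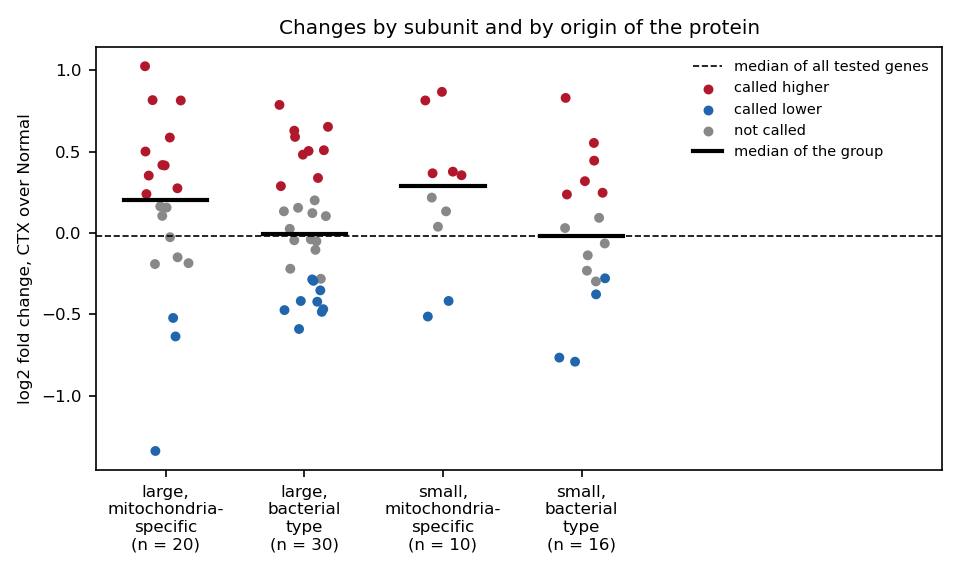
Log2 fold change, CTX over Normal, of each tested member by subunit and by whether the protein is named as mitochondria-specific or of bacterial type; thick lines mark group medians and the dashed line the median of all tested genes. The medians are 0.20 and -0.01 in the large subunit and 0.29 and -0.02 in the small subunit, and under upper-quartile scaling the medians of all mitochondria-specific and all bacterial-type members are 0.12 and -0.12.

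The summed levels, drawn from the same values as the grouping, are given as a further description. Mitochondria-specific members summed to 488, 465 and 452 FPKM in CTX libraries, against 394, 426 and 407 FPKM in Normal libraries, and the groups did not overlap. Under upper-quartile scaling they overlapped, at 458, 452 and 440.02 FPKM in CTX libraries, against 416, 441 and 419 FPKM in Normal libraries. Bacterial-type members summed to 831, 795 and 746 FPKM in CTX libraries, against 749, 849 and 797 FPKM in Normal libraries, and the groups overlapped. As means these were 468 ± 18.4 FPKM in CTX libraries and 409 ± 16.2 FPKM in Normal libraries for the mitochondria-specific members (SD, n = 3 each), and 790.5 ± 42.9 FPKM in CTX libraries and 799 ± 50.1 FPKM in Normal libraries for the bacterial-type members (SD, n = 3 each). For 10 mitochondria-specific proteins of the small subunit the sum was 126 ± 4.76 FPKM in CTX libraries and 102 ± 1.79 FPKM in Normal libraries (SD, n = 3 each).

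**Figure D3:**
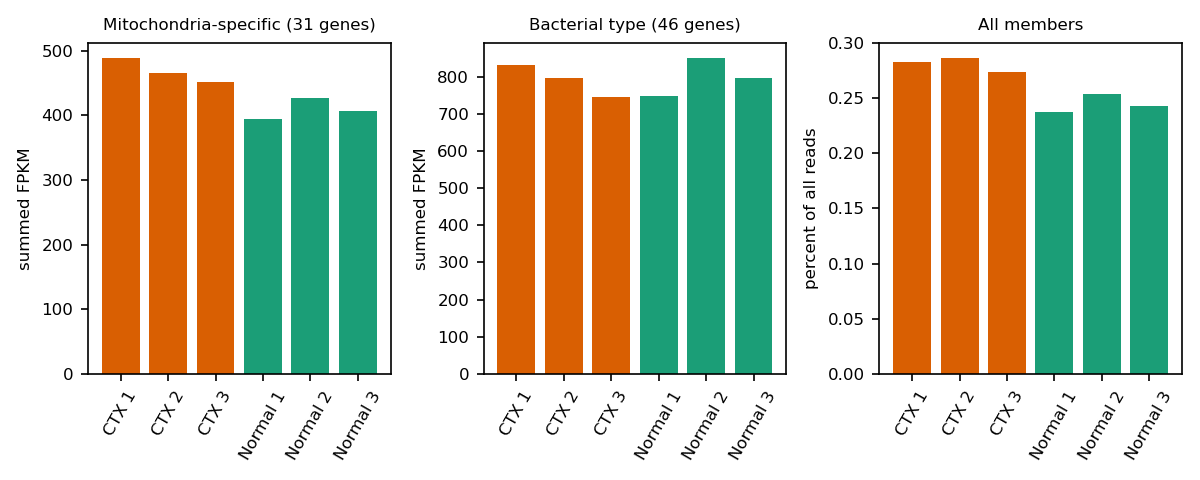
Summed FPKM per library of mitochondria-specific members (left) and bacterial-type members (middle), and percent of all reads on all members (right), with 3 CTX libraries beside 3 Normal libraries. The mitochondria-specific sums do not overlap between groups (452 to 488 in CTX, 394 to 426 in Normal), whereas the bacterial-type sums do. Under upper-quartile scaling the mitochondria-specific sums overlap as well (440 to 458 in CTX, 416 to 441 in Normal).

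Among the members, gene length varied together with the direction of change, and mitochondria-specific and bacterial-type members were not matched for it. Of 8 members with under 1000 bases of exon 2 were called higher and 4 lower (median -0.34), of 31 with 1000 to 2499 bases 9 were called higher and 9 lower (median 0.03), and of 38 with 2500 bases or more 19 were called higher and 6 lower (median 0.23). Across the 77 members, which share the same 6 libraries, the log2 fold change and the log2 length had Pearson's r = 0.297 and Spearman's rho = 0.272. Of 252 protein-coding genes under 1000 bases 25.4% were called higher and 39.3% lower (median -0.23), against 33.4% and 38.3% of all tested protein-coding genes. Protein-coding genes of 1000 to 2499 bases were called higher in 32.1% and lower in 36.5% of cases (median -0.05). For those of 2500 bases or more the shares were 33.9% and 38.6% (median -0.05), without the rise of the long members. Over all 1086 tested genes under 1000 bases, noncoding ones included, 33.6% were called higher and 21.6% lower (median 0.24). The part of length in the members' values was not tested. Within groups, CTX 1 was the highest CTX library for 44 of the 77 members, and Normal 2 was the highest Normal library for 40.

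The members with the largest rise came from both subunits. Mrps30 (ENSMUSG00000021731, chr13:118378381-118387252, minus strand, GRCm38), a mitochondria-specific protein of the large subunit despite its name, had 9.17, 7.30 and 7.31 FPKM in CTX libraries, against 3.97, 3.68 and 3.83 FPKM in Normal libraries. Its CTX values were all above its Normal values, CTX 1 the highest, and the log2 fold change was 1.02 ± 0.11 (SE, limma, adjusted p = 8.8e-05). Mrps18b (chr17:35910379-35916389, minus strand), 1 of 3 mitochondrial forms of bacterial S18, had 17.2, 17.2 and 20.4 FPKM in CTX libraries, against 11.7, 8.28 and 10.1 FPKM in Normal libraries. The groups did not overlap, at 0.87 ± 0.13 (limma, adjusted p = 0.00053), and 30.5% of its exon bases lie across the opposite-strand gene Gm16279, which had 98 reads in all. Mrps17, a bacterial-type protein of the small subunit that binds its rRNA, had 13.5, 13.1 and 14.4 FPKM in CTX libraries, against 7.52, 7.40 and 7.99 FPKM in Normal libraries. The values did not overlap, at 0.83 ± 0.07 (limma, adjusted p = 2.6e-05). Mrps31, a mitochondria-specific protein of the small subunit, had 14.2, 12.1 and 11.9 FPKM in CTX libraries, against 6.64, 8.50 and 6.54 FPKM in Normal libraries, a rise of 0.81 ± 0.12 (limma, adjusted p = 0.00051).

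The rise included proteins of the central protuberance and of the tunnel exit. Mrpl38, a large protein of the central protuberance, the crest of the large subunit, had 33.4, 35.4 and 32.4 FPKM in CTX libraries, against 17.5, 19.7 and 20.3 FPKM in Normal libraries. Mrpl45, which anchors the mitoribosome to the inner membrane at the tunnel exit, had 30.2, 26.9 and 28.7 FPKM in CTX libraries, against 16.8, 16.6 and 15.3 FPKM in Normal libraries. CTX values lay above Normal values in every library of both genes, with log2 fold changes of 0.82 ± 0.07 for Mrpl38 (limma, adjusted p = 3.7e-05) and 0.81 ± 0.07 for Mrpl45 (limma, adjusted p = 2.6e-05). Mrpl15, a bacterial-type protein of the large subunit core, had 7.22, 7.22 and 7.34 FPKM in CTX libraries, against 4.05, 4.16 and 4.29 FPKM in Normal libraries. The groups were far apart for their spread, and its log2 fold change was 0.79 ± 0.08 (limma, adjusted p = 5.5e-05). Mrpl9, which in bacteria reaches out from the base of the L1 stalk, had 29.6, 24.1 and 25.6 FPKM in CTX libraries, against 16.4, 16.7 and 17.1 FPKM in Normal libraries. The groups did not overlap, at 0.65 ± 0.08 (limma, adjusted p = 0.00021).

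Of the 8 members with the largest fall, 4 had under 1000 bases of exon. Mrpl54 (chr10:81264713-81266934, minus strand), a mitochondria-specific protein of the large subunit with 825 bases of exon, had 16.2, 13.1 and 9.82 FPKM in CTX libraries, against 28.3, 36.6 and 33.3 FPKM in Normal libraries. No other member fell as far, at -1.34 ± 0.18 on the log2 scale (limma, adjusted p = 0.00025), and the CTX values were themselves spread. Mrps28 (783 bases of exon), the mitochondrial counterpart of bacterial S1 by name, had 15.6, 10.5 and 9.61 FPKM in CTX libraries, against 22.6, 20.2 and 18.1 FPKM in Normal libraries. CTX 1 was nearest to the Normal values without reaching them, and the log2 fold change was -0.79 ± 0.18 (limma, adjusted p = 0.0041). Mrps21 (739 bases of exon), a small bacterial-type protein, had 32.3, 31.1 and 27.2 FPKM in CTX libraries, against 45.5, 60.9 and 48.7 FPKM in Normal libraries. Its values did not overlap, at -0.77 ± 0.12 (limma, adjusted p = 0.00058). Mrpl49, a mitochondria-specific protein of the large subunit, had 14.5, 14.3 and 13.4 FPKM in CTX libraries, against 20.004, 22.8 and 23.2 FPKM in Normal libraries, at -0.64 ± 0.08 (limma, adjusted p = 0.00016).

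The other members of this set fell by less. Mrpl20, an early-binding protein of the large subunit in bacteria, had 19.9, 19.9 and 17.05 FPKM in CTX libraries, against 24.4, 33.2 and 28.6 FPKM in Normal libraries, at -0.59 ± 0.12 on the log2 scale (limma, adjusted p = 0.0024). Mrpl48, a mitochondria-specific protein of the central protuberance, had 1.72, 1.72 and 1.80 FPKM in CTX libraries, against 2.53, 2.68 and 2.45 FPKM in Normal libraries, at -0.52 ± 0.11 (limma, adjusted p = 0.0037). Both genes had every CTX value below every Normal value. Mrps25, a mitochondria-specific protein of the small subunit, had 1.88, 2.06 and 1.88 FPKM in CTX libraries, against 2.79, 2.85 and 2.81 FPKM in Normal libraries, at -0.51 ± 0.11 (limma, adjusted p = 0.0034). Of its exon bases 69.8% lie across Nr2c2 on the opposite strand, and since no source used here gives the strand setting of the counting, reads of the 2 genes cannot be told apart. Mrpl27, a bacterial-type protein near the peptidyl transferase centre, had 15.8, 15.4 and 12.6 FPKM in CTX libraries, against 18.3, 25.01 and 18.4 FPKM in Normal libraries. Its log2 fold change was -0.49 ± 0.14 (limma, adjusted p = 0.014), and the call was lost without CTX 3, at -0.39 and adjusted p = 0.05.

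**Figure D4:**
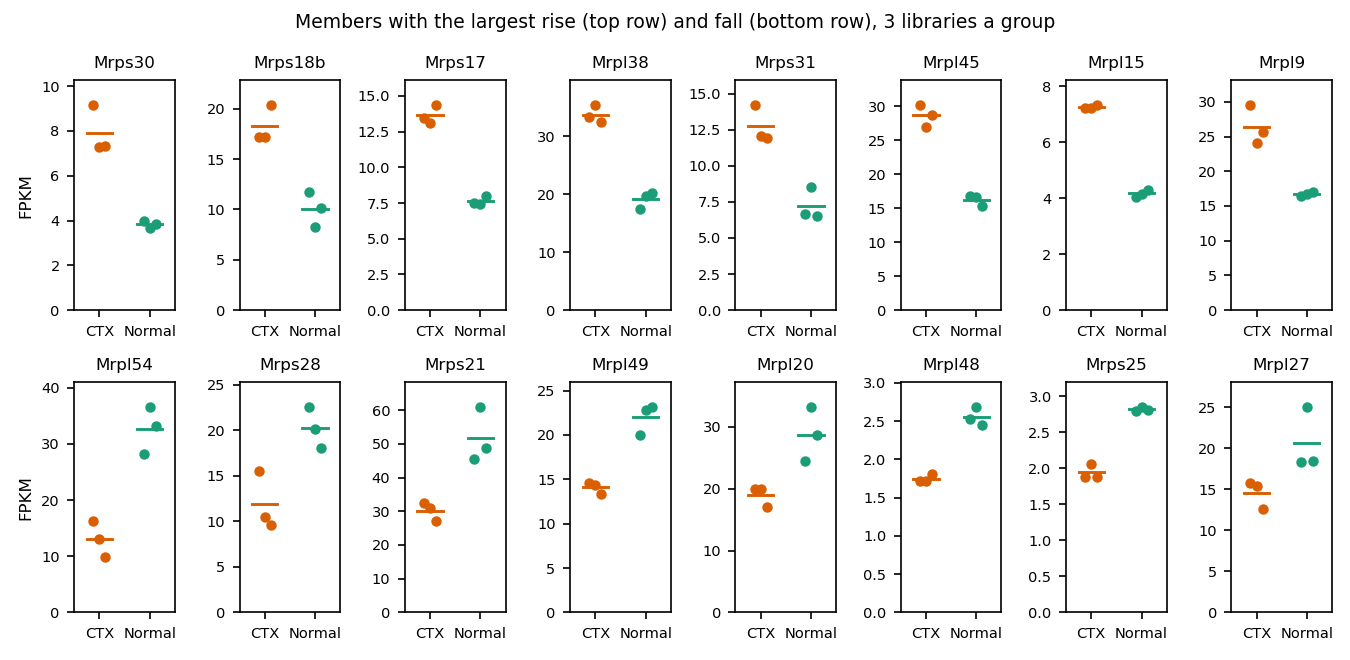
FPKM in each library for the 8 members with the largest called rise (top) and the 8 with the largest called fall (bottom), CTX libraries left of Normal libraries; points are libraries, lines are group means and each axis starts at 0. In all 16 genes the groups do not overlap, and CTX means run from 1.75 FPKM (Mrpl48) to 33.7 FPKM (Mrpl38).

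Among Mrpl10, Mrpl12 and Mrpl11, of the ribosomal stalk, which recruits translation factors, 1 fell and none was called higher. The stalk was not surveyed in full, and Mrpl54, the member with the largest fall, is not counted here. Mrpl10, the base of the L7/L12 stalk, had 29.5, 29.8 and 32.2 FPKM in CTX libraries, against 26.4, 26.7 and 29.1 FPKM in Normal libraries. Mrpl12, the stalk protein itself, had 22.8, 20.1 and 19.8 FPKM in CTX libraries, against 19.1, 20.4 and 18.8 FPKM in Normal libraries. The values of Mrpl10 did not overlap between groups and those of Mrpl12 did, yet neither was called, at 0.15 ± 0.07 for Mrpl10 (limma, adjusted p = 0.069) and 0.10 ± 0.07 for Mrpl12 (limma, adjusted p = 0.25), and the sign of Mrpl12 turned under upper-quartile scaling, at -0.01, while Mrpl10 was called under median-of-ratios scaling, at 0.18 and adjusted p = 0.041. Mrpl11, also at the base of the stalk and added after its values were seen, had 9.74, 10.8 and 8.25 FPKM in CTX libraries, against 11.95, 13.2 and 11.5 FPKM in Normal libraries, and fell, at -0.35 ± 0.11 (limma, adjusted p = 0.019). Mrpl53 was listed at 0 in all 6 libraries and could not be tested. Of its exon bases 695, or 88.0%, also belong to Gm42688 on the same strand, which had 97 reads in all, so a level of Mrpl53 was not measurable here.

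The tunnel exit and the central protuberance were mixed. Mrpl44, which has a ribonuclease III fold and lies beside Mrpl45, had 30.6, 23.96 and 29.8 FPKM in CTX libraries, against 17.3, 19.4 and 19.1 FPKM in Normal libraries, at 0.59 ± 0.10 (limma, adjusted p = 0.0012). Of the members whose bacterial counterparts ring the tunnel exit, Mrpl32, Mrpl22 and Mrpl24 rose (0.63, 0.59 and 0.50), Mrpl17 fell (-0.42), and Mrpl23 and Mrpl47 were not called (0.20 and -0.10). Among proteins of the central protuberance Mrpl38, Mrpl46 and Mrpl40 rose (0.82, 0.35 and 0.24), and Mrpl48, Mrpl18 and Mrpl27 fell (-0.52, -0.42 and -0.49). Mrpl58, also in the protuberance and derived from a release factor, had 6.43, 6.63 and 5.80 FPKM in CTX libraries, against 7.38, 6.72 and 7.48 FPKM in Normal libraries. It was not called, at -0.19 ± 0.09 (limma, adjusted p = 0.085), but was called lower under upper-quartile scaling, at -0.30 and adjusted p = 0.016. These 2 sets of proteins were put together after their values were seen and do not cover every member at either place.

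Of a pair of core proteins of the large subunit, 1 fell and 1 was not called. Mrpl2, next to the peptidyl transferase centre, had 41.5, 41.2 and 37.8 FPKM in CTX libraries, against 34.04, 39.4 and 36.6 FPKM in Normal libraries, and the groups overlapped. Mrpl3, an early rRNA-binding protein, had 7.47, 8.10 and 6.94 FPKM in CTX libraries, against 9.13, 8.64 and 9.73 FPKM in Normal libraries. Mrpl2 was not called, at 0.13 ± 0.07 (limma, adjusted p = 0.14), and Mrpl3 fell, at -0.29 ± 0.09 (limma, adjusted p = 0.019). The call of Mrpl3 was lost without CTX 3 (-0.23, adjusted p = 0.073) and without Normal 3 (-0.24, adjusted p = 0.078).

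In the small subunit, the decoding protein Mrps12 was lower. Mrps12, which lies at the decoding centre, had 24.001, 22.4 and 23.7 FPKM in CTX libraries, against 27.5, 34.8 and 29.3 FPKM in Normal libraries, and fell, at -0.38 ± 0.09 (limma, adjusted p = 0.0065). Mrps2, a bacterial-type protein of the small subunit, had 17.8, 18.6 and 17.1 FPKM in CTX libraries, against 14.8, 15.2 and 15.4 FPKM in Normal libraries, at 0.24 ± 0.06 (limma, adjusted p = 0.0092). Mrps6, the partner of S18 in bacteria, had 14.1, 13.1 and 13.9 FPKM in CTX libraries, against 10.7, 12.5 and 11.4 FPKM in Normal libraries, at 0.25 ± 0.08 (limma, adjusted p = 0.021). In these genes the groups did not overlap, but under upper-quartile scaling neither rise was called, at 0.12 for Mrps2 (adjusted p = 0.11) and 0.14 for Mrps6 (adjusted p = 0.13). The rise of Mrps6 was also lost without CTX 3 (0.24, adjusted p = 0.066), without Normal 1 (0.20, adjusted p = 0.075) and without Normal 3 (0.24, adjusted p = 0.064). Mrps34, needed in mammals for small subunit stability, had 16.4, 15.1 and 16.995 FPKM in CTX libraries, against 11.4, 13.1 and 13.04 FPKM in Normal libraries, at 0.37 ± 0.08 (limma, adjusted p = 0.0044). Other genes, mainly the opposite-strand Mapk8ip3 and the same-strand Nme3, cover 77.8% of its exon bases, so its reads are uncertain.

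The 3 S18 paralogues did not move together. Mrps18a, which sits in the large subunit, had 11.98, 11.1 and 10.97 FPKM in CTX libraries, against 8.03, 8.20 and 7.73 FPKM in Normal libraries, and rose, at 0.50 ± 0.07 (limma, adjusted p = 0.00039). Mrps18b rose as given above. Mrps18c, which takes the place of bacterial S18 in the small subunit, had 8.81, 9.33 and 9.25 FPKM in CTX libraries, against 10.9, 11.5 and 10.9 FPKM in Normal libraries. It fell, at -0.28 ± 0.07 (limma, adjusted p = 0.0061), and this call was lost with limma-voom on the recovered reads, at -0.23 and adjusted p = 0.11. Mrps36, outside the mitoribosome, had 15.2, 11.3 and 13.2 FPKM in CTX libraries, against 15.9, 19.97 and 18.6 FPKM in Normal libraries, and fell, at -0.46 ± 0.12 (limma, adjusted p = 0.011).

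The members not yet described moved within a narrower range. Those called higher had log2 fold changes of 0.27 (Mrpl39) to 0.55 (Mrps10), and those called lower -0.47 (Mrpl36) to -0.29 (Mrpl28). Mrps10, a bacterial-type protein of the small subunit head, had 5.25, 7.35 and 6.86 FPKM in CTX libraries, against 4.29, 4.22 and 4.53 FPKM in Normal libraries, at 0.55 ± 0.13 (limma, adjusted p = 0.006). Mrps23, a mitochondria-specific protein of the small subunit and among its more abundant members, had 38.3, 35.5 and 35.9 FPKM in CTX libraries, against 29.5, 28.4 and 27.8 FPKM in Normal libraries, at 0.35 ± 0.06 (limma, adjusted p = 0.00096). Both had every CTX value above every Normal value. Mrpl14 and Mrps16 were called higher although their groups overlapped, Mrpl14 with 43.4, 36.6 and 32.1 FPKM in CTX libraries, against 23.02, 34.5 and 23.6 FPKM in Normal libraries (limma, adjusted p = 0.034), and Mrps16 with 11.4, 10.7 and 8.66 FPKM in CTX libraries, against 7.47, 9.13 and 7.88 FPKM in Normal libraries (limma, adjusted p = 0.046). In both genes Normal 2 was the highest Normal library. Mrpl36, a small bacterial-type protein of the large subunit, had 23.2, 27.9 and 21.9 FPKM in CTX libraries, against 35.5, 31.7 and 33.9 FPKM in Normal libraries, at -0.47 ± 0.10 (limma, adjusted p = 0.0027), and Mrps33, a mitochondria-specific protein of the small subunit, had 9.36, 8.43 and 8.09 FPKM in CTX libraries, against 12.5, 12.1 and 10.2 FPKM in Normal libraries, at -0.42 ± 0.10 (limma, adjusted p = 0.0057). Mrpl34, with the highest level per length of all members, had 89.05, 75.1 and 72.7 FPKM in CTX libraries, against 65.8, 85.6 and 81.9 FPKM in Normal libraries and was not called (limma, adjusted p = 0.86). These genes were chosen after their values were seen.

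A pair of members shares its own exon bases. Mrpl46 (chr7:78775236-78783531, minus strand) and Mrps11 (chr7:78783119-78792989, plus strand) overlap by 173 bases at their starts. Mrpl46 had 13.9, 11.99 and 11.7 FPKM in CTX libraries, against 9.43, 9.64 and 10.3 FPKM in Normal libraries, and rose, at 0.35 ± 0.09 (limma, adjusted p = 0.0069). Mrps11 had 7.02, 6.22 and 5.12 FPKM in CTX libraries, against 6.79, 8.10 and 7.63 FPKM in Normal libraries, and was not called, at -0.30 ± 0.13 (limma, adjusted p = 0.068). In all, 33 members share an exon base with another gene and 10 share over 20% of them. Without these, 26 of 68 tested members were called higher and 17 lower, against 33.1% and 35.8% of all tested genes.

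Subunits of the mitoribosome that carry other names rose or were not called. Of 5 such genes 3 rose and 0 fell (median 0.27), against 33.1% and 35.8% of all tested genes. Gadd45gip1, a protein of the large subunit, had 13.6, 12.98 and 12.97 FPKM in CTX libraries, against 8.05, 9.19 and 7.64 FPKM in Normal libraries, at 0.67 ± 0.08 (limma, adjusted p = 0.0002). Chchd1, of the small subunit, had 46.1, 46.3 and 41.1 FPKM in CTX libraries, against 33.6, 32.9 and 29.6 FPKM in Normal libraries, at 0.47 ± 0.08 (limma, adjusted p = 0.00078). Both genes were higher in every CTX library. Dap3, a GTP-binding protein of the small subunit, was the other that rose, at 0.27 ± 0.07 (limma, adjusted p = 0.0095). Ptcd3 and Aurkaip1 were not called, at 0.07 and 0.21.

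Assembly and translation factors of the mitoribosome were called higher more than lower. Of 25 assembly factors 16 rose and 2 fell (median 0.35), against 33.1% and 35.8% of all tested genes. C1qbp, an RNA-binding matrix protein, had 92.99, 82.1 and 81.9 FPKM in CTX libraries, against 47.2, 49.04 and 47.1 FPKM in Normal libraries. Dhx30, an RNA helicase of mitochondrial RNA granules, had 22.5, 20.02 and 21.4 FPKM in CTX libraries, against 11.6, 12.8 and 12.8 FPKM in Normal libraries. The groups were far apart in both, at 0.84 ± 0.07 for C1qbp (limma, adjusted p = 2.3e-05) and 0.78 ± 0.07 for Dhx30 (limma, adjusted p = 4.2e-05). Of 17 translation factors 10 rose and 2 fell (median 0.47). Mtrf1, a release factor, rose by 0.85 ± 0.10 (limma, adjusted p = 0.00013). Gatb, a subunit of the amidotransferase that makes glutaminyl-tRNA, had 0.862, 0.831 and 0.943 FPKM in CTX libraries, against 2.32, 2.33 and 2.22 FPKM in Normal libraries, at -1.29 ± 0.13 (limma, adjusted p = 5.6e-05). The other subunits of this enzyme rose, Gatc at 0.70 ± 0.11 (limma, adjusted p = 0.00089) and Qrsl1 at 0.47 ± 0.12 (limma, adjusted p = 0.0076). Of 8 enzymes that modify mitochondrial rRNA 3 rose, Mrm3 (0.97 ± 0.14) and Trmt61b (0.66 ± 0.12) among them, and 3 fell, with a median of -0.22.

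The genes that supply mitochondrial RNA also rose more than they fell, unlike the mRNAs of the mitochondrial genome. Of 25 genes of mitochondrial transcription and RNA handling 15 rose and 2 fell (median 0.30), against 33.1% and 35.8% of all tested genes. Grsf1, of the RNA granules, rose by 0.74 ± 0.06 (limma, adjusted p = 2e-05) and Mtpap, the mitochondrial poly(A) polymerase, by 1.06 ± 0.10 (limma, adjusted p = 3.3e-05). Of 12 tested mRNAs of the mitochondrial genome 9 fell and 0 rose, with a median of -1.33. The smallest p-values were those of mt-Nd3 (-1.57) and mt-Co2 (-1.38), both far below mt-Co1 in level. Their means were 17.0 and 20.3 FPKM in CTX libraries, against 50.7 and 52.6 FPKM in Normal libraries. The gene with the highest level, mt-Co1, had 9684, 9466 and 9588 FPKM in CTX libraries, against 7520, 5762 and 7173 FPKM in Normal libraries, without overlap, and was not called, at 0.50 ± 0.47 (limma, adjusted p = 0.37). The summed level of the 13 mRNAs overlapped, at 13454, 14302 and 14095 FPKM in CTX libraries, against 16694, 13445 and 16923 FPKM in Normal libraries. The 2 rRNAs of the mitoribosome itself rose. For mt-Rnr1, the small subunit rRNA, the values were 882, 400.2 and 635 FPKM in CTX libraries, against 87.1, 65.5 and 74.3 FPKM in Normal libraries, and for mt-Rnr2, the large subunit rRNA, 429, 185 and 302 FPKM in CTX libraries, against 141, 110.1 and 139 FPKM in Normal libraries. CTX 1 was the highest and CTX 2 the lowest CTX library in both, and the log2 fold changes were 3.01 ± 0.26 for mt-Rnr1 (limma, adjusted p = 2.7e-05) and 1.16 ± 0.27 for mt-Rnr2 (limma, adjusted p = 0.0058). The libraries were made from RNA selected with oligo-dT, and near-identical nuclear copies can share these reads, so the values of the rRNAs and of the mitochondrial mRNAs are uncertain.

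Regulators of nuclear genes for mitochondrial proteins were called higher more than lower. Of 12 transcription factors and coactivators 7 rose and 1, Hcfc1, fell (-0.39), with a median of 0.78. Over all tested genes 33.1% were called higher and 35.8% lower. Among those that rose, Ppargc1a was near the floor, with means of 0.12 FPKM in CTX libraries and 0.04 FPKM in Normal libraries. Ppargc1b was also low, at 0.89 FPKM in CTX libraries and 0.36 FPKM in Normal libraries. Pprc1, a coactivator related to PGC-1, had 18.9, 18.3 and 19.1 FPKM in CTX libraries, against 8.97, 8.51 and 7.71 FPKM in Normal libraries, at 1.15 ± 0.07 (limma, adjusted p = 6.8e-06), and Myc had 199.9, 151 and 169.9 FPKM in CTX libraries, against 75.1, 74.9 and 78.5 FPKM in Normal libraries, at 1.18 ± 0.10 (limma, adjusted p = 2.9e-05). Factors named for a motif that was searched are added although the rule for named genes did not choose them. Nrf1, the gene of nuclear respiratory factor 1, had 7.38, 5.61 and 6.80 FPKM in CTX libraries, against 3.50, 3.24 and 3.58 FPKM in Normal libraries, at 0.91 ± 0.12 (limma, adjusted p = 0.00025). Gabpa, the ETS-domain subunit of GABP, was not called, at 0.00 ± 0.10 (limma, adjusted p = 0.97). Of the genes of its other subunit, Gabpb1 rose, at 1.01 ± 0.13 (limma, adjusted p = 0.00023). Gabpb2 was not called, at -0.04 ± 0.10 (limma, adjusted p = 0.72). Yy1 was not called, at 0.18 ± 0.07 (limma, adjusted p = 0.059). Atf4, the stress-responsive factor whose core was in 0 member promoters, had 462, 373 and 387 FPKM in CTX libraries, against 97.3, 104.9 and 104.5 FPKM in Normal libraries, at 1.99 ± 0.10 (limma, adjusted p = 2.5e-06). Of 16 genes of the mitochondrial stress response 11 rose and 2 fell (median 0.68), Atf4 among them. The smallest p-values were those of Ddit3, a stress-induced transcription factor, at 4.42 ± 0.06 (limma, adjusted p = 1.4e-08), and Dnaja3, a matrix chaperone, at 1.47 ± 0.05 (limma, adjusted p = 6.7e-07). The signs of the medians of the 9 lists above did not turn under any of the 3 other scalings. A scaling shifts all genes nearly alike, and these shifts were smaller than each list median, so no sign could have turned.

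**Figure D5:**
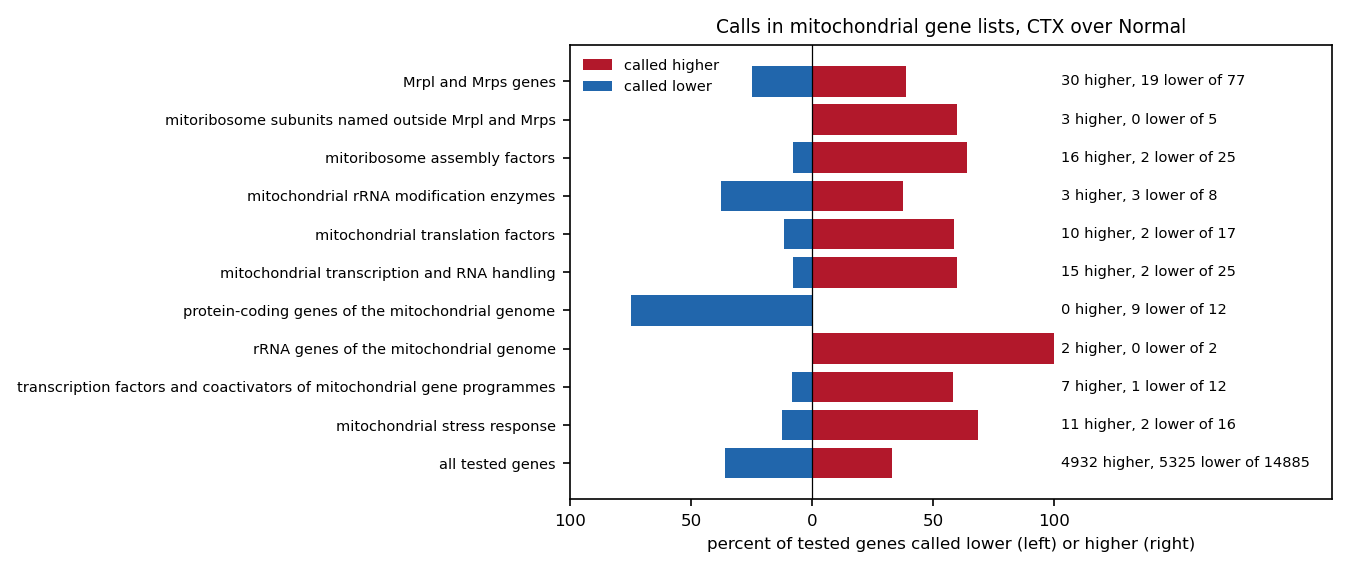
Percent of tested genes called lower (left of 0) or higher (right of 0) in CTX libraries in each gene list, with the counts at the right and all tested genes in the last row. The Mrpl and Mrps genes have 30 higher and 19 lower of 77 (24 and 27 under upper-quartile scaling), assembly factors 16 and 2 of 25, and protein-coding genes of the mitochondrial genome 0 and 9 of 12.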

How the data were processed

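Per the labels' protocols, libraries were made from oligo-dT selected RNA with random priming. The submitters' processing notes name CASAVA, HISAT2 version 2.0.5 and the build GRCm39; no source used here gives the counting tool, its strand setting or the annotation. The authors' deposited values are FPKM, although the table is called raw counts. FPKM times deposited gene length gave whole reads for 100% of values in each library (tolerance 0.01 of a read). Of 54409 gene IDs shared with GENCODE M21 (GRCm38), 98.33% had equal start and end, so coordinates are read as GRCm38.

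Genes with at least 10 reads in at least 3 libraries and 15 in all were tested, 14885 of 54532 genes with 99.9% of reads. limma version 3.58.1 (R version 4.3.3) was fitted to log2(FPKM + 0.1), a scale on which changes of low genes are understated, using a trend of variance on mean, two-sided moderated tests and Benjamini-Hochberg adjustment, with calls at an adjusted p under 0.05. The fit was also run on simulated data with far fewer changed genes than were called here, each changed by at least 1.5-fold. That run therefore does not bear on the smaller changes of most members. Alternatives were pseudocounts of 0.5 and 1, no filter, a mean of at least 1 FPKM, 3 other scalings, limma-voom on recovered reads, a replicate block, protein-coding genes only and leaving out each library.

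Members and gene lists were chosen with earlier results of these data known. The named members are the 8 largest called rises and the 8 largest called falls among those with a mean of at least 1 FPKM and no overlap between groups, a panel of structural and functional members, and any untested member. For each pathway list the 2 called genes with the smallest p-values were named. The marker genes, motif factors, mt-Co1 and further genes of the pathway lists given in the text were chosen after their values were seen. List symbols that the table does not hold were left out. Exon overlaps come from GENCODE M21 and promoters from RefSeq (GRCm38.p6). Leaving out the members that share over 20% of exon bases, the grouping into mitochondria-specific and bacterial-type members and the place of Mrps18a and Mrps18b in it were added after seeing the data.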

Additional observations from a re-analysis of the deposited data

How the results depend on the processing

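Of the 49 called members, 43 to 49 kept their call and direction under each setting, and 0 changed sign. Over 29 named members and 16 alternatives, 450 values kept their direction and side of the threshold, 9 lost their call, 4 gained 1 and 1 turned, Mrpl12 under upper-quartile scaling (-0.0089). Upper-quartile scaling gave medians of -0.0068 for all members, -0.0079 for the large and 0.0217 for the small subunit members and -0.13 for all genes, and ratios of summed FPKM, CTX over Normal, of 0.97 (large) and 0.93 (small). The median of all genes was -0.0086 with no filter, 0.039 at a mean of at least 1 FPKM, 0.0019 under median-of-ratios scaling, 0.0233 scaled to total reads, 0.026 with limma-voom and -0.0579 over protein-coding genes. With limma-voom the small subunit median was 0.18. Leaving out 1 library gave a small subunit median of 0.10 to 0.19 and a large minus small difference of -0.0783 to -0.023, with 26 to 30 members called higher and 15 to 22 lower. The ratio of summed FPKM of the small subunit members lay on both sides of 1, at 0.98 to 1.04, over these fits. The cause of these shifts was not tested.

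No pairing by replicate number was seen, with correlations of -0.08, 0.005 and -0.033 between libraries of the same number. These are correlations of deviations from means of 3 libraries, which cannot show that the samples were unpaired. With the replicate block, 30 members were called higher and 19 lower, as without it, and 48 of the 49 calls were kept. Each group had 3 libraries of about equal depth, and small differences may be missed at this size.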

Other observations

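The 5 pseudogene rows with mitoribosomal names held few reads. Mrpl23-ps1 had 20, 15 and 14 reads in CTX libraries and 8, 14 and 16 reads in Normal libraries. Mrpl48-ps had 2, 10 and 6 reads in CTX libraries and 8, 19 and 8 reads in Normal libraries. The 3 Mrps36 pseudogenes had at most 5 reads in any library.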
